A study of Homo sapiens with 16 samples.

Results

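The genes described here are 9 UPF and SMG factors of nonsense-mediated decay, UPF1, UPF2, UPF3A, UPF3B, SMG1, SMG5, SMG6, SMG8 and SMG9, taken by gene name from a table of 58735 genes. All 9 were among the 22433 genes that passed the filter on low counts, with between 1609 and 25028 counts each in a library. They were followed in IMR32 cells, an established human neuroblastoma line, treated for 24 h with vehicle (DMSO), with 1.25 µM indisulam or 4 µM alectinib alone, or with both at these doses (the combination). Each of the 4 groups had 4 libraries of polyadenylated RNA, the labels give the genotype as WT throughout, and the drug groups are compared with the same 4 DMSO libraries. The labels do not say that the libraries came from separate cultures, so the p-values measure only the spread between libraries, which may be partly technical.

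Nonsense-mediated decay removes mRNAs on which a ribosome stops early, typically upstream of an exon junction complex that splicing has left behind. UPF3B binds that complex and carries UPF2, which in turn contacts the helicase UPF1 at the stopped ribosome. SMG1, a large kinase held in check by its partners SMG8 and SMG9, phosphorylates UPF1, and phosphorylated UPF1 recruits the endonuclease SMG6 and, through SMG5, the machinery of deadenylation and decapping. UPF3A is the paralog of UPF3B and takes the same place with weaker activity. The mRNAs of several of these factors are themselves known substrates of the pathway in human cells. Indisulam glues RBM39, a splicing factor, onto DCAF15, a substrate receptor of a ubiquitin ligase, which leads to its degradation, and alectinib is an inhibitor of the receptor kinase ALK. The study's title places the drug pair in the context of disturbed splicing, and the comparisons below ask how the mRNAs of the decay factors stood after each drug and after both.

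Promoter sequences are shown for the 3 members that were called changed in every treatment (UPF2, UPF3A and SMG9, below) and for UPF3B, the paralog of UPF3A. The sequences are from RefSeq on GRCh38.p14, run from 250 bases before to 50 bases after a transcription start, and are written 5′ to 3′ on the strand of the gene. RefSeq windows were matched for 8 of the 9 genes, and where a gene had several, the window nearest to the deposited gene start was used. Capitals mark matches on either strand to the E-box CACGTG, the GC box GGGCGG, the CCAAT box CCAAT, the ETS motif CCGGAAG, the NRF1 motif GCGCATGCGC, the cyclic AMP response element TGACGTCA or the ATF4-type element TGATGNAA.
UPF2 promoter (chr10:12043121-12043420, minus strand): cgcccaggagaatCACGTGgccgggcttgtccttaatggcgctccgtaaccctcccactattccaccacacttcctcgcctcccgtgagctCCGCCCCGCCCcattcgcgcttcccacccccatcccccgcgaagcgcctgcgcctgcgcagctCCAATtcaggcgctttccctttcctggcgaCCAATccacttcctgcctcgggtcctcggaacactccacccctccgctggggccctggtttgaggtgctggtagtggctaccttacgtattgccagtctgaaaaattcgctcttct
UPF3A promoter (chr13:114281351-114281650, plus strand): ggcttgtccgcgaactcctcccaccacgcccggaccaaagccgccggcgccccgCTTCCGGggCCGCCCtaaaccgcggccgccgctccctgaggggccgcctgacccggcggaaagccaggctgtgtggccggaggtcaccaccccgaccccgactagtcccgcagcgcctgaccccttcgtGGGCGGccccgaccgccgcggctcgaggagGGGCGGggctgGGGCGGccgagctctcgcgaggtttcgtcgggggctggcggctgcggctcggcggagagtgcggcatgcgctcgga
UPF3B promoter (chrX:119852914-119853213, minus strand): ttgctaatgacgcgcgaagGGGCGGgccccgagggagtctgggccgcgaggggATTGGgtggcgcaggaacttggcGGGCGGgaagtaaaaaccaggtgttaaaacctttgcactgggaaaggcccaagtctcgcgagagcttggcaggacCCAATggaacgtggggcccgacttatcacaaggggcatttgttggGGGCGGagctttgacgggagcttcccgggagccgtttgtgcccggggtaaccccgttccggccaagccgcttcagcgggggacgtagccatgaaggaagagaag
SMG9 promoter (chr19:43754913-43755212, minus strand): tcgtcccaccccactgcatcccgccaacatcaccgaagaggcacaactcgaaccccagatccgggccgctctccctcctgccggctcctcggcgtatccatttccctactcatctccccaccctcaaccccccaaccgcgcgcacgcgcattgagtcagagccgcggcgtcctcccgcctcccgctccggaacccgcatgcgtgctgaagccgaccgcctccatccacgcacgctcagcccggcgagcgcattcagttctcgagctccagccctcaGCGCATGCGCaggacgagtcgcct

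The UPF2 window held 1 E-box, 2 GC boxes that overlap by 1 base, and 2 CCAAT boxes. UPF3A had 4 GC boxes and 1 ETS motif, whereas UPF3B had 3 GC boxes and 2 CCAAT boxes. The SMG9 window had a single match, the NRF1 motif, which 1.24% of the 35116 promoter windows of the same length hold. The E-box was found in 7.26% of those windows, the GC box in 45.0%, the CCAAT box in 34.6% and the ETS motif in 10.3%. Among the members not printed, UPF1 had 2 GC boxes and 1 CCAAT box, SMG5 had 1 CCAAT box, and SMG1 and SMG6 had 6 GC boxes each. Neither the cyclic AMP response element (1.85% of windows) nor the ATF4-type element (3.62%) was matched in any of the 8 windows. A match is a run of letters only and shows no binding.

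Across the treatments, the factors did not move as a block. UPF2, UPF3B, SMG5, SMG8 and SMG9 were higher with indisulam and with the combination, UPF3A and SMG6 were lower in both, SMG1 was lower only in comparisons that involve the combination, and UPF1 was not called against DMSO in any treatment. Levels are counts per 1e6 with TMM scaling (CPM), changes are log2 fold changes ± SE from edgeR's quasi-likelihood test over all 16 libraries, and a gene was called at an adjusted p under 0.05 over the 22433 genes. Indisulam against DMSO called 7 of the 9 members, 5 higher and 2 lower, where 47.8% of all tested genes were called (23% higher, 24.8% lower). Alectinib called 3, 2 higher and 1 lower, against 22.3% of all genes (9.99% higher, 12.3% lower). With so few members, 3 of 9 is not far from that share. The combination called 8, 5 higher and 3 lower, against 60.3% (29.7% higher, 30.6% lower). The tested genes include some with far fewer counts than any member, and with no filter on low counts the indisulam share was 26.4%. Shares among genes with counts like those of the members were not taken, here or for the lists below. The median log2 change of the 9 members was 0.29 with indisulam, 0.04 with alectinib and 0.49 in the combination, and that of all tested genes was -0.01, 0.01 and 0.01. In the order indisulam, alectinib and combination, the 4 libraries of the drug group lay entirely above or below those of DMSO for 7, 2 and 8 members. Such separation was not counted over all tested genes, so these counts do not set the members apart from other genes. Under upper-quartile scaling, which moved the median of all genes in the combination to 0.13, the members were 5 higher and 1 lower in indisulam, 3 higher and 0 lower in alectinib and 5 higher and 1 lower in the combination. Of all 22433 genes, 6339 were then higher and 4690 lower in indisulam, 3285 and 1848 in alectinib, and 8027 and 5776 in the combination. RNA of a mixed lysate cannot tell fewer cells of one kind from less RNA per cell, and the same holds for each change below.

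**Figure D1:**
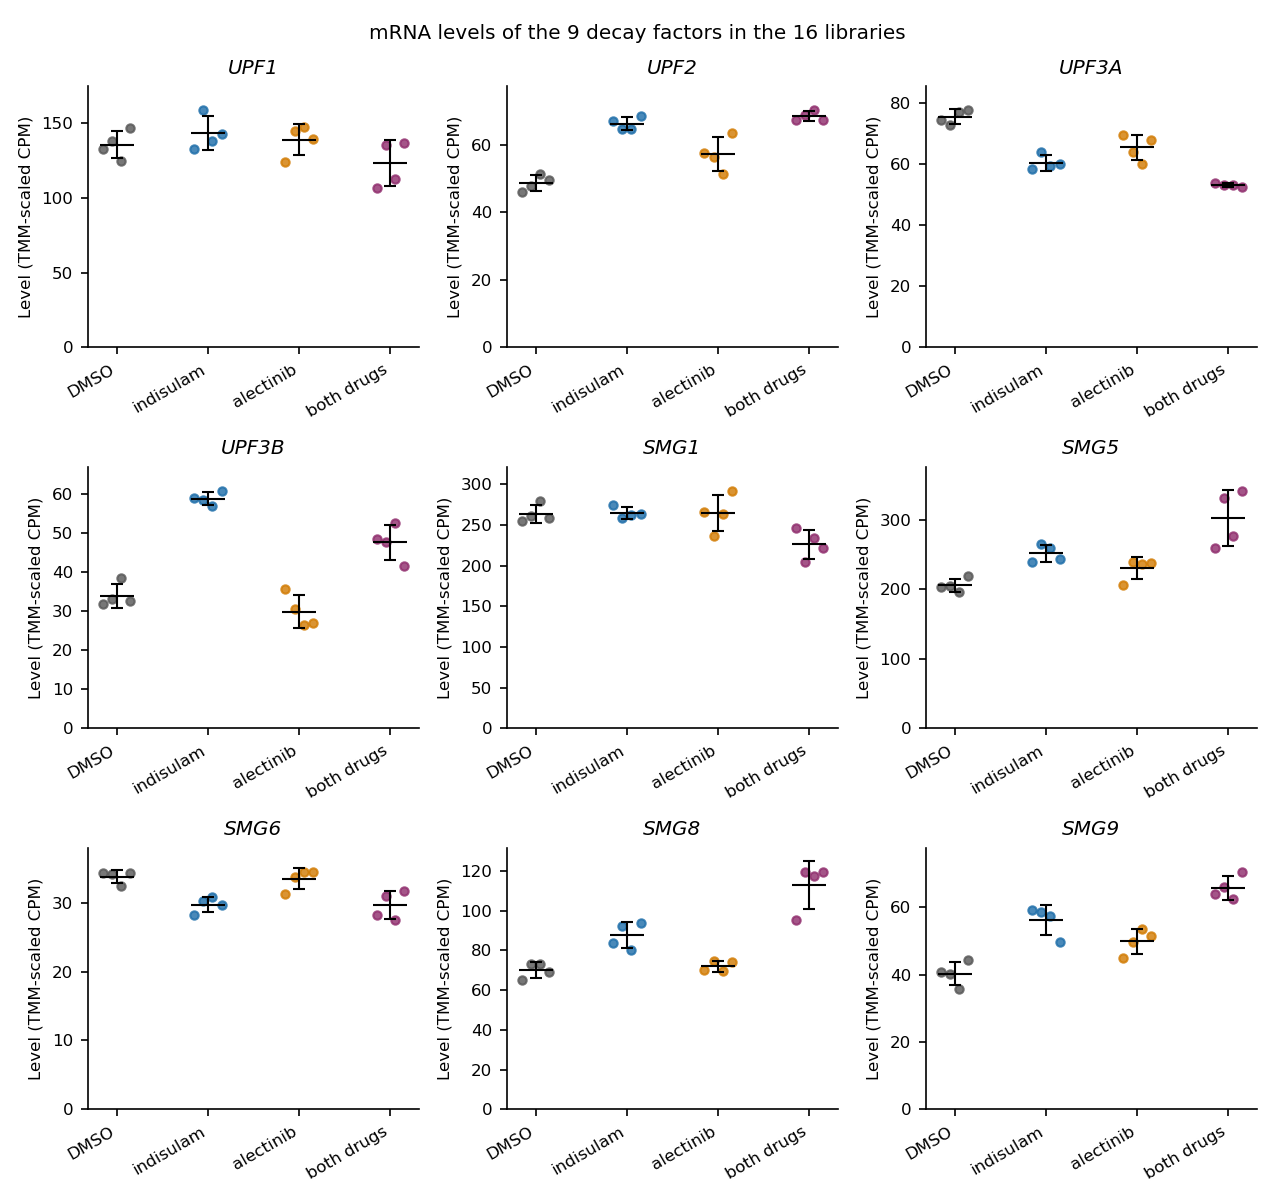
Levels of the 9 members in TMM-scaled CPM, 1 panel a gene, with each library as a point and the mean ± SD of the 4 libraries of a group in black. UPF3B runs from 33.9 CPM in DMSO to 58.8 in indisulam while UPF3A runs from 75.5 to 60.4, and UPF1 stays within overlapping ranges.

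The mRNA of RBM39, the target of indisulam, was at 271 ± 18.9 CPM (SD, n = 4) in DMSO, 532 ± 25.5 with indisulam, 364 ± 17.2 with alectinib and 734 ± 38.1 with both. It rose with alectinib alone as well (log2 change 0.42 ± 0.06). RBM39 protein was not measured, so these levels do not show whether it was degraded. Alectinib replicate 1 had 90.2 M counts (M, 1e6) and the other 15 libraries had 55.1 to 63.7 M. Mitochondrial genes took 5.23% to 5.77% of the counts in DMSO, 6.27% to 6.67% with indisulam and 6.41% to 6.70% with both. In alectinib they took 5.13% to 5.39% in replicates 2 to 4 and 6.73% in replicate 1, which thus stood apart in this share as well as in depth. The share was higher in the groups given indisulam, and its part in the changes below was not tested. All 9 adrenergic neuroblastoma markers (such as GATA3, ISL1 and MYCN) were above the filter. Their summed level was 4320 to 4727 CPM in DMSO, 4430 to 4939 with indisulam, 3363 to 3831 with alectinib and 2598 to 3079 in the combination. Of 7 fibroblast markers 6 were tested, with sums of 81.6 to 91.1, 73.9 to 82.4, 60.6 to 70.3 and 50.4 to 65.2 CPM in the same order. The summed markers of epithelial, blood and endothelial cells reached at most 0.956, 0.244 and 0.889 CPM, and KRT8, KRT18, CDH1, CD3E and HBB were under 0.1 CPM in every library. The neuroblastoma and fibroblast sums thus moved with alectinib and the combination, and their part in the changes of the decay factors was not tested. The sums do not stand for every marker, as GATA3 was at a log2 change of 0.02 in both treatments and was not called.

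UPF1 (ENSG00000005007, GRCh38 chr19:18831938-18868236, plus strand), the helicase on which the pathway turns, was not called against DMSO in any treatment. The 4 libraries were at 133, 138, 125 and 147 CPM in DMSO, 133, 159, 138 and 143 with indisulam, 124, 145, 147 and 139.7 with alectinib, and 107, 136, 113 and 137 in the combination. All 4 groups overlapped. Against DMSO the log2 change was 0.08 ± 0.08 in indisulam (adjusted p = 0.447), 0.04 ± 0.08 in alectinib (adjusted p = 0.797) and -0.14 ± 0.08 in the combination (adjusted p = 0.146, 95% interval -0.32 to 0.04). The combination was below indisulam by a log2 change of -0.22 ± 0.08 (adjusted p = 0.036), a call lost without indisulam replicate 2 (0.135) or 4 (0.0566), without combination replicate 1 (0.133) or 3 (0.112), and under upper-quartile scaling (0.0579) or a fit of only those groups (0.0694).

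UPF2 (ENSG00000151461, chr10:11920022-12043170, minus strand), the bridge between UPF3 and UPF1, rose in every treatment. DMSO libraries had 46.0, 47.8, 51.4 and 49.6 CPM, indisulam 67.1, 64.6, 64.8 and 68.5, alectinib 57.7, 56.4, 51.2 and 63.6, and the combination 67.4, 68.7, 70.4 and 67.3. Indisulam and combination libraries all lay above DMSO, and alectinib replicate 3 fell just below the highest DMSO library. The log2 changes were 0.44 ± 0.07 (adjusted p = 5.24e-06), 0.23 ± 0.07 (0.0117) and 0.49 ± 0.07 (6.25e-07) in indisulam, alectinib and combination. The alectinib call was lost without alectinib replicate 4 (0.18, adjusted p = 0.0668). Between the combination and indisulam the difference was 0.05 ± 0.06 (adjusted p = 0.612, 95% interval -0.09 to 0.19), and the combination was above alectinib by 0.26 ± 0.06 (adjusted p = 0.00161).

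The paralogs UPF3A (ENSG00000169062, chr13:114281584-114305817, plus strand) and UPF3B (ENSG00000125351, chrX:119805311-119852998, minus strand) moved in opposite directions with indisulam and with the combination. UPF3A was at 74.6, 72.7, 77.1 and 77.8 CPM in DMSO, 58.4, 64.1, 59.2 and 59.9 with indisulam, 69.5, 64, 60.2 and 68.0 with alectinib, and 53.7, 53.3, 53.2 and 52.5 in the combination. Every drug library was below every DMSO library, and every combination library was below all others. The log2 changes of UPF3A were -0.32 ± 0.06 (adjusted p = 9.48e-05), -0.21 ± 0.06 (0.014) and -0.51 ± 0.06 (1.01e-07). The alectinib call was lost without alectinib replicate 3 (adjusted p = 0.0675), under upper-quartile scaling (-0.13, adjusted p = 0.118) and with no filter on low counts (0.0572). The interaction, in which the log2 changes of both single drugs are taken from that of the combination, was 0.02 ± 0.08 for UPF3A (adjusted p = 0.902).

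UPF3B libraries were at 31.7, 33.0, 38.4 and 32.6 CPM in DMSO, 58.9, 58.6, 56.9 and 60.8 with indisulam, 35.7, 30.4, 26.4 and 27.1 with alectinib, and 48.4, 47.7, 52.7 and 41.5 in the combination. Indisulam libraries were the highest throughout, the combination came between them and DMSO, and alectinib overlapped DMSO. The rise was 0.79 ± 0.09 in indisulam (adjusted p = 1.27e-07) and 0.49 ± 0.09 in the combination (5.37e-05), and the combination was below indisulam by -0.30 ± 0.09 (0.00873). In alectinib the change was -0.18 ± 0.09 (adjusted p = 0.159, 95% interval -0.38 to 0.02), and without alectinib replicate 1, the library of highest depth, it was -0.28 (adjusted p = 0.027).

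Within a library, the ratio of UPF3A to UPF3B counts per kb of exon does not depend on scaling. It was 1.25, 1.17, 1.07 and 1.27 in the DMSO libraries, 0.529, 0.584, 0.556 and 0.526 with indisulam, 1.04, 1.12, 1.22 and 1.34 with alectinib, and 0.591, 0.596, 0.540 and 0.674 in the combination. UPF3A was thus the more abundant paralog per length in all 8 libraries without indisulam, and UPF3B in all 8 with it. Which paralog leads depends on the exonic lengths used, 5772 bases for UPF3A and 3081 for UPF3B, summed over all annotated transcripts. Without length, mean UPF3A was at 60.4 CPM against 58.8 for UPF3B in indisulam, and 53.2 against 47.6 in the combination. The shifts of the ratio from DMSO do not depend on these lengths. The log2 ratio differed from DMSO by -1.12 ± 0.07 in indisulam and by -0.99 ± 0.09 in the combination (exact two-sided permutation tests, p = 0.0286 each, adjusted p = 0.0429 over 3 comparisons). For alectinib the difference was -0.02 ± 0.10 (exact p = 0.857). With 4 libraries against 4, 0.0286 is the smallest p this test can give. In indisulam and the combination, every library was below DMSO for UPF3A and above DMSO for UPF3B. The ratio had to separate fully, so these p-values were fixed by the levels above and add no separate support. The test was also chosen with earlier results of these data known. Of the 150-base stretches in UPF3A transcripts, 7.24% also occur in its pseudogenes UPF3AP1 and UPF3AP2, each at under 1 CPM in every library, while those of UPF3B occur in no other gene.

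**Figure D2:**
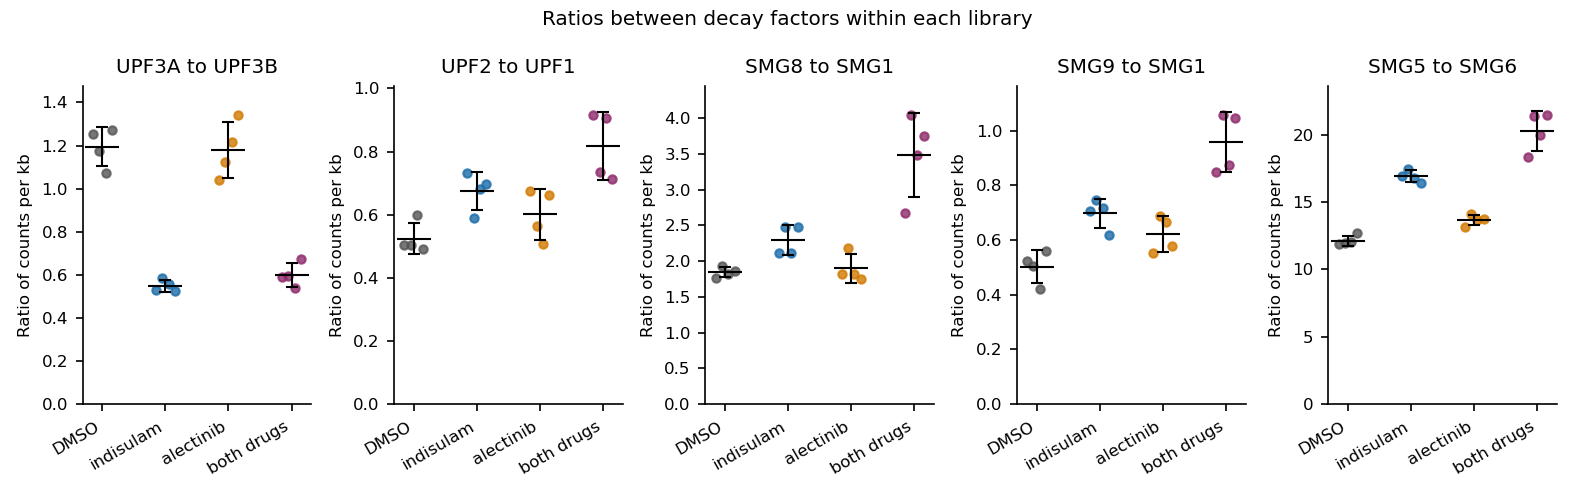
Ratios of counts per kb of exon between members within each library, as points, with the mean ± SD of the 4 libraries of a group in black. The UPF3A to UPF3B ratio is above 1 in every DMSO and alectinib library and below 1 in every indisulam and combination library, and the SMG5 to SMG6 ratio is highest in the combination.

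SMG1 (ENSG00000157106, chr16:18804853-18926454, minus strand), the kinase of UPF1, was called changed only where the combination was compared. DMSO libraries were at 255, 261, 279 and 258 CPM, indisulam at 275, 258, 262 and 263, alectinib at 266, 237, 263 and 292, and the combination at 246, 205, 234 and 221. The combination lay below all DMSO and indisulam libraries and overlapped alectinib. Its log2 change against DMSO was -0.22 ± 0.06 (adjusted p = 0.00557), and under upper-quartile scaling it was -0.09 (0.26), no longer called. Indisulam and alectinib were each at 0.01 ± 0.06 against DMSO (adjusted p = 0.949 and 0.956), with 95% intervals from -0.14 or -0.13 to 0.15. The interaction of -0.23 ± 0.09 did not pass (adjusted p = 0.0995), although it did without alectinib replicate 2 (-0.28, 0.0365) or without combination replicate 1 (-0.27, 0.0419).

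Near-identical copies bear on SMG1. Its 7 pseudogenes on the same chromosome, SMG1P1 to SMG1P7, held 16.8% to 21.3% of the counts of SMG1 and pseudogenes together, and 4.33% of the 150-base stretches of SMG1 transcripts also occur in other genes. The leading partners in these stretches were SMG1P1 to SMG1P6, and SMG1P7 was not among them. The handling of multi-mapping reads was not given in the sources used here, so the division between SMG1 and these copies is uncertain. With all 8 summed, an alternative chosen after seeing the data, the change in the combination was -0.16 against DMSO (adjusted p = 0.0387) and -0.16 against indisulam (0.0513). SMG1P7, at 5.74 ± 0.803 CPM in DMSO, rose in indisulam (0.31 ± 0.12, adjusted p = 0.0434) and in the combination (0.47 ± 0.12, 0.00199), where the gene itself was lower, and SMG1P5 rose in the combination (0.55 ± 0.23, 0.0437).

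SMG8 (ENSG00000167447, chr17:59209400-59215247, plus strand) and SMG9 (ENSG00000105771, chr19:43727992-43754990, minus strand), the partners that restrain SMG1, both rose with indisulam and with the combination. SMG8 was at 65.0, 72.9, 73.3 and 69.4 CPM in DMSO, 83.8, 92.5, 80.3 and 93.9 with indisulam, 70.1, 74.8, 69.4 and 73.9 with alectinib, and 95.1, 119.5, 118 and 119.6 in the combination. All indisulam libraries were above all of DMSO and alectinib, which overlapped each other, and all combination libraries were above all indisulam libraries. Changes against DMSO were 0.32 ± 0.07 in indisulam (adjusted p = 0.000948), 0.04 ± 0.07 in alectinib (0.753, 95% interval -0.12 to 0.20) and 0.69 ± 0.07 in the combination (2.36e-08).

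SMG8 was the only member whose interaction was called, with 0.33 ± 0.10 (adjusted p = 0.0383), where 13.5% of all tested genes were called (6.85% higher, 6.63% lower). At 1 of 9, the members were near that share. That call depended on the library set. It held when the library left out was DMSO replicate 1, indisulam replicate 2 or 4, alectinib replicate 2 or combination replicate 1, and was lost in the other 11 cases (adjusted p = 0.0518 to 0.0962, log2 0.29 to 0.35). Over every alternative run, the adjusted p was between 0.00431 and 0.0962. The 8 interactions that did not pass ranged from -0.25 ± 0.11 for UPF1 (adjusted p = 0.152) to 0.10 ± 0.11 for SMG5 (0.6). Of the stretches in SMG8 transcripts, 6.87% also occur in AC099850.2, an overlapping gene on the same strand that is listed with 0 counts in every library.

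SMG9 libraries were at 40.8, 40.2, 35.7 and 44.2 CPM in DMSO, 59.1, 58.7, 57.5 and 49.6 with indisulam, 44.8, 49.6, 53.6 and 51.5 with alectinib, and 63.8, 66.0, 62.4 and 70.5 in the combination. Every drug library was above every DMSO library, and every combination library was above all single-drug libraries. The rises were 0.48 ± 0.08 (adjusted p = 1.6e-05), 0.31 ± 0.08 (0.00516) and 0.71 ± 0.08 (2.89e-08). The combination was above indisulam by 0.22 ± 0.08 (adjusted p = 0.0229), a call lost without indisulam replicate 4 (0.109) or combination replicate 4 (0.0782). The interaction was -0.09 ± 0.11 (adjusted p = 0.672).

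Per kb of exon, the ratio of SMG8 to SMG1 was 1.84 ± 0.0713 in DMSO, 2.30 ± 0.21 with indisulam, 1.90 ± 0.196 with alectinib and 3.49 ± 0.589 in the combination (SD, n = 4). For SMG9 to SMG1 it was 0.502 ± 0.0602, 0.697 ± 0.0547, 0.621 ± 0.0659 and 0.957 ± 0.11 in the same order. These ratios were not tested. In both, the lowest combination library was above the highest library of every other group.

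The effectors downstream of phosphorylated UPF1 also diverged. SMG5 (ENSG00000198952, chr1:156249224-156282825, minus strand), an adaptor that leads to deadenylation and decapping, was at 204, 205, 196 and 219 CPM in DMSO, 239, 266, 260.0 and 245 with indisulam, 207, 239.9, 237 and 238 with alectinib, and 260.0, 332, 277 and 342 in the combination. Indisulam and combination libraries were all above DMSO, and in alectinib replicate 1 alone sat among the DMSO values. The rise was 0.29 ± 0.08 in indisulam (adjusted p = 0.00285) and 0.56 ± 0.08 in the combination (1.08e-06), and the combination was above indisulam by 0.26 ± 0.08 (0.00829). In alectinib the change was 0.16 ± 0.08 (adjusted p = 0.139). It passed under upper-quartile scaling (0.24, 0.0157) and in a fit of alectinib and DMSO only (0.17, 0.0384).

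SMG6 (ENSG00000070366, chr17:2059839-2303771, minus strand), the endonuclease, was lower with indisulam and the combination by small amounts. Its libraries were at 34.2, 34.1, 32.4 and 34.4 CPM in DMSO, 28.2, 30.2, 30.8 and 29.7 with indisulam, 31.2, 33.8, 34.5 and 34.5 with alectinib, and 28.2, 31, 27.6 and 31.7 in the combination. Indisulam and combination libraries were all below DMSO. The changes were -0.19 ± 0.07 in indisulam (adjusted p = 0.0269), -0.01 ± 0.07 in alectinib (0.91, 95% interval -0.16 to 0.13) and -0.19 ± 0.07 in the combination (0.0185).

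Those SMG6 calls depended on the library set. The indisulam call was lost without DMSO replicate 1, 2 or 4 or indisulam replicate 1 or 4 (adjusted p = 0.0526 to 0.0853), under upper-quartile scaling (-0.10, 0.195) and with no filter (0.1004). The combination call was lost without combination replicate 1 (0.0513) or 3 (0.0667), under upper-quartile scaling (-0.07, 0.377), with no filter (0.0557) and in a fit of combination and DMSO only (0.05001). HIC1 on the opposite strand covers 22.9% of the exonic bases of SMG6. HIC1 itself had group means of 1.49 to 2.08 CPM, and the use of strand in counting was not given in the sources used here.

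The ratio of SMG5 to SMG6 per kb of exon was 12.1 ± 0.377 in DMSO, 16.9 ± 0.443 with indisulam, 13.7 ± 0.391 with alectinib and 20.3 ± 1.47 in the combination (SD, n = 4). The 4 groups did not overlap in this ratio, which was not tested.

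**Figure D3:**
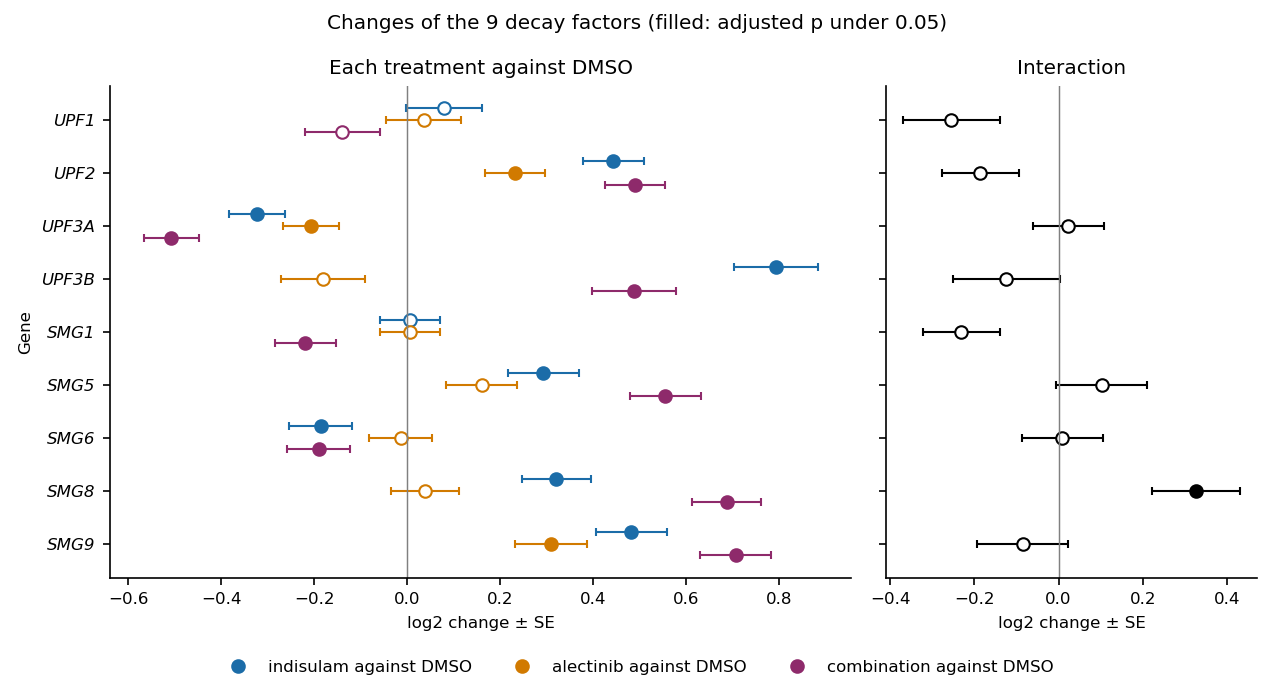
Log2 changes ± SE of the 9 members in each treatment against DMSO (left) and in the interaction (right), with filled points for an adjusted p under 0.05. UPF3A and UPF3B lie on opposite sides of 0 in indisulam and the combination, and SMG8 alone is filled in the interaction.

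Between the drug groups, the combination differed from indisulam in 7 of the 9 members, 3 higher (SMG5, SMG8 and SMG9) and 4 lower (UPF1, UPF3A, UPF3B and SMG1), where 39% of all tested genes were called (18.9% higher, 20.1% lower). The UPF3A call in that comparison (-0.18 ± 0.06, adjusted p = 0.0171) was lost without indisulam replicate 2 (0.0642), under upper-quartile scaling (0.0602), with no filter (0.0578) and in a fit of those groups only (0.051). Against alectinib it differed in 8, 5 higher and 3 lower, and 55.5% of all genes were called (26.5% higher, 29% lower). The member left out was UPF1 (-0.17 ± 0.08, adjusted p = 0.072), which passed without alectinib replicate 1 (0.0279), combination replicate 2 (0.0296) or combination replicate 4 (0.0255) and with no filter (0.0423). Indisulam and alectinib differed in 4 members, with 49.3% of all genes called (23.7% higher, 25.6% lower). At 4 of 9, the members were near that share. UPF2 (0.21 ± 0.06, adjusted p = 0.00914), UPF3B (0.97 ± 0.09, 5.67e-09) and SMG8 (0.28 ± 0.07, 0.00278) were higher with indisulam, and SMG6 was lower (-0.17 ± 0.07, 0.0381). The UPF2 call was lost without alectinib replicate 3 (0.0513). The SMG6 call of the combination against alectinib was lost without alectinib replicate 2, 3 or 4 or combination replicate 1 or 3, and that of indisulam without indisulam replicate 1, 2 or 4 or alectinib replicate 2, 3 or 4, with adjusted p up to 0.146 and 0.14 over all alternatives. SMG9, at 0.17 ± 0.08 between indisulam and alectinib (adjusted p = 0.0648), passed without indisulam replicate 4 (0.0191) or alectinib replicate 3 (0.0451), and over all libraries with the size factors of DESeq2 in edgeR (0.0378), with the Wald test of DESeq2 (0.031) and in a fit of only those groups (0.0417).

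Per exonic length, SMG5 was the most abundant member in DMSO (38.9 ± 1.83 CPM per kb, SD, n = 4), followed by SMG8 (18.7 ± 1.03), UPF1 (15.8 ± 1.07), UPF3A (13.1 ± 0.410), UPF3B (11 ± 0.975), SMG1 (10.1 ± 0.415), UPF2 (8.25 ± 0.396), SMG9 (5.08 ± 0.439) and SMG6 (3.20 ± 0.0875). Of these neighbours, UPF3B and SMG1 alone had overlapping ranges. SMG5 and SMG8 at the top and SMG6 at the bottom kept their places in all 4 groups. UPF3B moved up to the third place in indisulam (19.1 ± 0.524 CPM per kb) and in the combination (15.4 ± 1.49), where its range overlapped that of UPF1, and in alectinib UPF3A, SMG1, UPF3B and UPF2 overlapped in a chain of neighbours. Per-length levels use the deposited exonic length of all transcripts of a gene, and so understate genes whose main transcript is shorter than that.

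**Figure D4:**
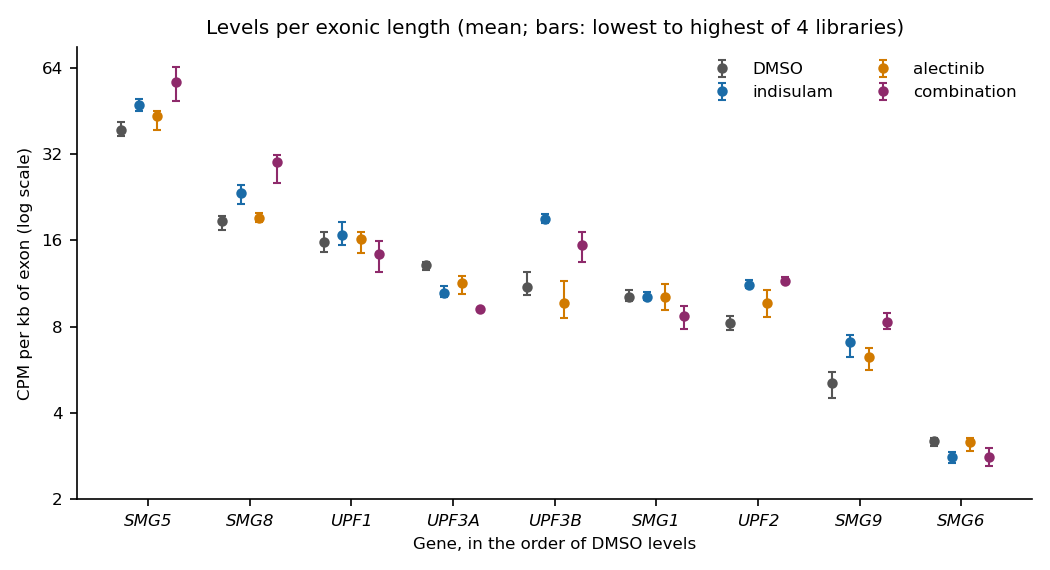
Levels per kb of exonic length on a log axis, with the mean of the 4 libraries of a group as a point and bars from the lowest to the highest library. Genes stand in the order of their DMSO levels, from SMG5 at 38.9 to SMG6 at 3.20 CPM per kb, and UPF3B passes UPF3A in the 2 groups given indisulam.

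GENCODE 29 lists between 4 and 20 transcripts for these genes. SMG1, SMG8 and SMG9 each have 1 transcript annotated as a substrate of nonsense-mediated decay and the other 6 have none, while 35.6% of the 19951 protein-coding genes have at least 1. Counts per gene sum all transcripts, so they give no share of the annotated decay substrates.

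Genes that work beside the 9 members were read from 4 lists. Of 21 further pathway partners (among them cap-binding, decapping and release factors), 9 were higher and 9 lower in indisulam, 4 and 2 in alectinib, and 11 and 8 in the combination, with median log2 changes of 0.09, 0.00 and 0.30, where 47.8%, 22.3% and 60.3% of all tested genes were called. The alectinib share of these partners, 6 of 21, was near that background. NCBP1, the large subunit of the nuclear cap-binding complex, fell in indisulam (-1.12 ± 0.07) and the combination (-1.06 ± 0.07), and so did NBAS (-0.81 ± 0.05 and -0.79 ± 0.05), a vesicle-tethering protein also tied to decay. The decapping cofactors DCP1A and DCP1B rose in all 3 treatments, to 0.90 ± 0.06 and 1.05 ± 0.07 in the combination. In alectinib the DCP1B call was close to the threshold (0.21 ± 0.07, adjusted p = 0.0488), and its libraries overlapped those of DMSO. The alectinib counts were 2 and 2 without alectinib replicate 1, where 17.9% of all tested genes were called. Under upper-quartile scaling, 11 partners were higher and 6 lower in indisulam, and 6 and 0 in alectinib. The shares of all tested genes called were then 49.2% and 22.9%.

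Of 5 core genes of the exon junction complex, to which UPF3B binds, 3 were higher with indisulam, 2 with alectinib and 4 with both, and 0 were lower, with medians of 0.24, -0.01 and 0.66. Of all tested genes, 23%, 9.99% and 29.7% were called higher in these comparisons. CASC3 rose by 0.39 ± 0.05, 0.32 ± 0.05 and 0.66 ± 0.05, and MAGOHB by 0.49 ± 0.09 and 0.72 ± 0.09 in indisulam and the combination. RBM8A rose in all 3 treatments (0.68 ± 0.07 in the combination), though its exons overlap those of other genes, and MAGOH rose in the combination alone of the comparisons with DMSO (0.38 ± 0.06). UPF3B and 3 of these 5 partners were thus higher with indisulam, while EIF4A3, the helicase of the complex, was not called in any treatment.

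Among 8 relatives and chaperones of SMG1 in its kinase family, 0 were higher and 6 lower in indisulam, 0 and 3 in alectinib, and 1 and 7 in the combination, with medians of -0.38, -0.02 and -0.53. Of all tested genes, 24.8%, 12.3% and 30.6% were called lower. MTOR (-1.55 ± 0.08 in indisulam, -1.45 ± 0.08 in the combination), PRKDC (-0.65 ± 0.06 and -1.53 ± 0.06) and ATM (-0.59 ± 0.09 and -0.77 ± 0.09), kinases of growth and DNA repair, fell in both, and so did TRRAP (-0.16 ± 0.05 and -0.45 ± 0.05), a relative without kinase activity. Beside these, SMG1 was at 0.01 in indisulam, not called, and at -0.22 in the combination. With upper-quartile scaling the indisulam count was 0 and 4, and without alectinib replicate 1 the alectinib count was 0 and 2. In these fits, 4690 of 22433 and 2310 of 22986 tested genes were called lower.

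Of 16 transcripts known as substrates of the pathway, 8 were higher and 3 lower in indisulam, 7 and 0 in alectinib, and 13 and 1 in the combination, with medians of 0.20, 0.24 and 0.72. Of all tested genes, 47.8%, 22.3% and 60.3% were called in either direction. Those called higher were 23%, 9.99% and 29.7%, and those called lower 24.8%, 12.3% and 30.6%. SNHG1 and GAS5, hosts of small nucleolar RNAs, rose in all 3 treatments, and SNHG1 reached 1.77 ± 0.06 in the combination. SNHG12, another such host on the list, was lower in indisulam (-0.26 ± 0.10) and the combination (-0.88 ± 0.11). GADD45A, a stress-induced growth arrest gene, reached 2.43 ± 0.10 there, with an interaction of 1.36 ± 0.13 (adjusted p = 8.81e-07). The stress transcription factor ATF3 was lower in indisulam (-0.50 ± 0.12) and higher in alectinib (1.06 ± 0.12) and the combination (2.23 ± 0.12). Upper-quartile scaling gave 8 higher and 1 lower in indisulam, where 6339 of the 22433 tested genes were called higher and 4690 lower. Levels of such transcripts depend on transcription as well as on decay, and counts per gene cannot tell these apart.

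**Figure D5:**
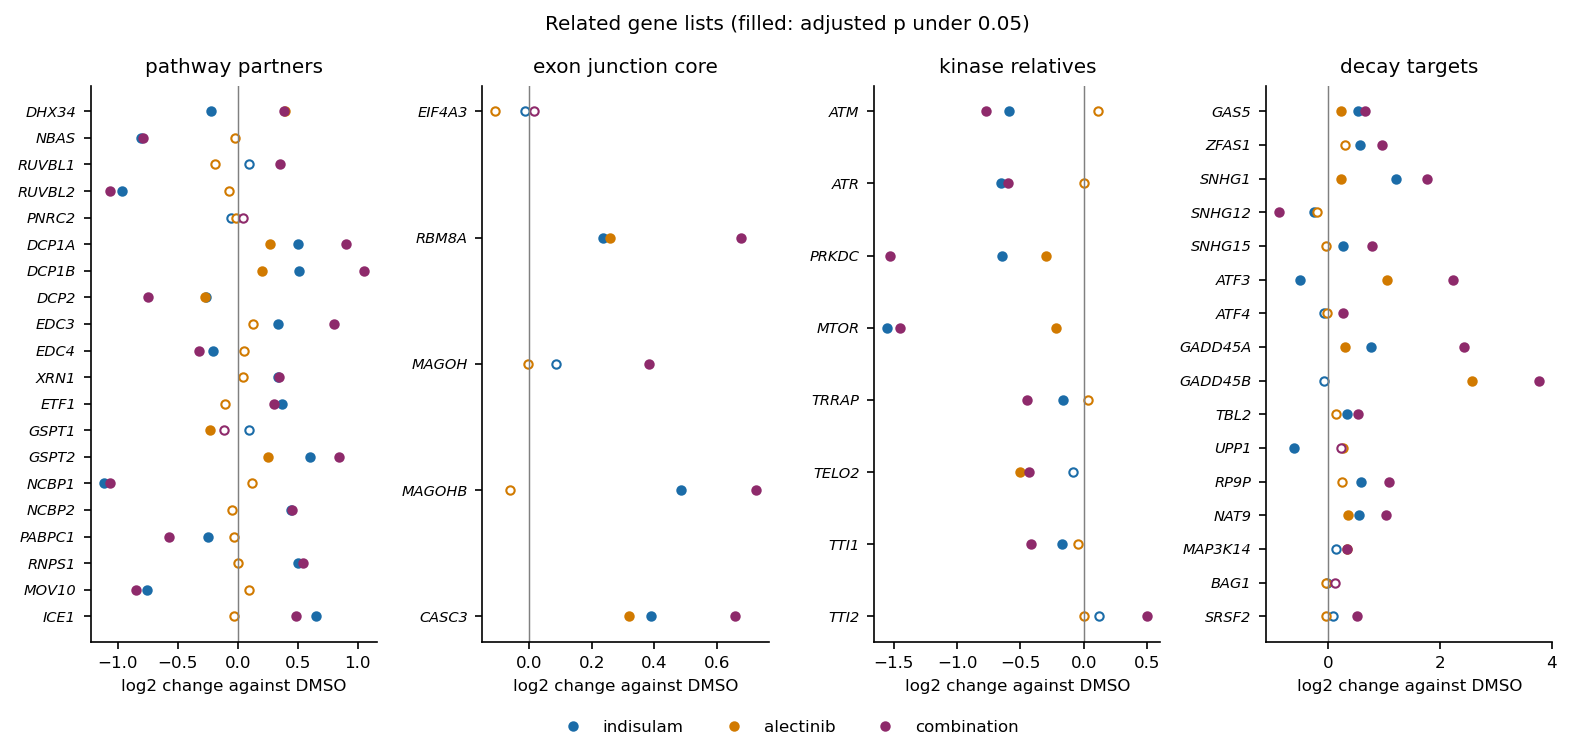
Log2 changes against DMSO of genes in the 4 related lists, with filled points for an adjusted p under 0.05. Filled points of the combination lie right of 0 for 4 of the 5 exon junction genes. They lie left of 0 for 7 of the 8 genes listed as kinase relatives, a list that also holds chaperones of these kinases.

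The members with the highest and the lowest log2 change in the combination were SMG9 (0.71) and UPF3A (-0.51). SMG8 (0.69) was within the SE of SMG9, and it was the higher of the pair without combination replicate 1 (0.76 against 0.72) or without DMSO replicate 3 (0.73 against 0.67). Over the 16 libraries and 10638 protein-coding genes with a mean of at least 5 CPM, the levels most like SMG9 on the log2 scale were those of PIGG (r = 0.971), MAU2 (0.970) and NAT9 (0.969). Their changes in the combination were 0.58, 1.1 and 1.04, and NAT9 is also on the list of decay substrates above. Most like UPF3A were KIF1B (r = 0.966), C12orf65 and TTL (0.963 each), with changes of -0.78, -0.75 and -0.96. These correlations describe libraries that share treatments, and any gene that follows the 4 groups in the same order scores high.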

How the data were processed

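Polyadenylated RNA was sequenced in 16 libraries, 4 for each of DMSO, indisulam, alectinib and the combination, grouped by their titles. The deposited table holds whole-number counts per gene, which the authors left without normalization. The submitters' processing notes name featureCounts 2.0.1, HISAT2 2.2.1, Trimmomatic 0.39 and FastQC 0.11.9, and GRCh38 as the build. The handling of strand and of multi-mapping reads was not given in the sources used here, so counts of genes with overlapping exons or near-identical copies are uncertain. All gene coordinates were equal to those of GENCODE 29, and 27 gene names that had been turned into dates were restored from the identifiers.

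The counts were scaled by TMM and filtered with filterByExpr by group in edgeR 4.0.16 (R 4.3.3), which left 22433 genes and removed at most 0.0654% of the counts of a library. One quasi-likelihood fit with a mean for each group and 12 residual degrees of freedom gave every comparison, with two-sided p-values adjusted over all tested genes by the Benjamini-Hochberg method. SE values come from the log2 change and the F statistic, and 95% intervals from the t distribution on 12 degrees of freedom. The test shares spread across genes and so has more degrees of freedom. These intervals are therefore slightly wider than its p-values imply. CPM values are given with SD over 4 libraries. Replicates differed by more than counting noise (chi-square per degree of freedom 9.47 to 38.1), and no library was merged.

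The UPF3A to UPF3B ratio was tested with an exact permutation test over libraries. Shared sequence was counted as 150-base stretches of GENCODE 29 transcripts found in transcripts of other genes. The members, the related lists and the tests were chosen with earlier results of these data known. All 9 members are named, with their pseudogene copies, the 4 genes of each list with the smallest p in the combination against DMSO, and the 3 genes most like the members with the highest and the lowest change in the combination. A pathway partner and a few markers are counted in their lists but not reported here by name. EIF4A3 and SNHG12 were named outside this rule, after their values were seen. The edgeR procedure was tested on simulated counts. Alternatives were upper-quartile scaling, the size factors and the Wald test of DESeq2 1.42.0, no filter, a replicate block, fits of only the groups compared, and leaving out each library.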

Additional observations from a re-analysis of the deposited data

Results flagged for a closer look

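In groups of 4 libraries, a value was singled out when its gap to the nearest of the others, divided by the whole range, was above Dixon's 95% critical value. Of 36 member and group pairs examined 3 were singled out, and chance alone marks about 1 in 20. SMG5 was at 206.7 CPM in alectinib replicate 1, the library of highest depth, against 237.1 to 239.9 in the other alectinib libraries. SMG6 was at 32.4 CPM in DMSO replicate 3, against 34.1 to 34.4 in the other DMSO libraries. SMG8 was at 95.1 CPM in combination replicate 1, against 118 to 119.6 in the others, and without that library its rise in the combination was 0.76 against DMSO. SMG8 also had an interaction of 0.33 on the log2 scale (edgeR's quasi-likelihood test, adjusted p = 0.0383), a call lost in 11 of the 16 fits that leave out 1 library (adjusted p = 0.0518 to 0.0962). Of all tested genes, 13.5% had a called interaction.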

How the results depend on the processing

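The counts of called members were within 1.5 times the reported count under every alternative run, the interaction excepted. Leaving out 1 library gave 6 to 7 called members in indisulam, 2 to 4 in alectinib and 7 to 8 in the combination against DMSO, 5 to 7 for the combination against indisulam, 7 to 9 against alectinib, 3 to 4 for indisulam against alectinib, and 0 to 2 for the interaction, where SMG8 was lost in 11 cases and SMG1 gained in 2. Of 952 member values recomputed, 877 stayed on their side of the threshold, 60 lost a call, 15 gained one and 0 called values changed sign. Another 39 changes of sign were of uncalled values, at most 0.044 in size as reported and 0.064 in the alternatives. The UPF3A to UPF3B difference ranged from -1.17 to -1.09 in indisulam, -0.08 to 0.04 in alectinib and -1.05 to -0.94 in the combination without 1 library, where the exact test of 4 against 3 cannot go below p = 0.0571. Upper-quartile scaling moved the split of all called genes in the combination from 6657 higher and 6870 lower to 8027 and 5776. With no filter on low counts, 40862 genes were tested and 34.4% were called in the combination. In the fit with replicate number as a block, the called members were 7, 3 and 8 in the treatments against DMSO, 7, 9 and 4 between drug groups, with UPF1 gained for the combination against alectinib (adjusted p = 0.02), and 1 in the interaction. The block left the UPF3 ratio differences at -1.12, -0.02 and -0.99 in an exact sign-flip test over 4 pairs, which cannot reach an adjusted p under 0.05. Deviations of same-numbered libraries correlated between -0.0626 and 0.168 over 24 pairs (median 0.0492, 5 over 0.1), and those of the 72 other pairs had a median of -0.0104, with 2 over 0.1. Of the 16 libraries, 9 correlated best with their own number, a hint from the data only, and the numbers were not taken to pair the libraries. The cause of the lost calls was not tested.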
